A study of Mus musculus with 12 samples.

Results

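The regions described here are stretches of open chromatin that were called in wild-type mouse bone mesenchymal cell cultures and in no library of an EF genotype. They were selected on their peak calls in all 12 libraries of an ATAC-seq series. Overlapping peaks (1 bp or more) on chromosomes 1 to 19 and X were merged into 153346 regions, and a region was kept when at least 3 of 5 wild-type libraries and 0 of 7 EF libraries called it. This left 5566 regions, which is 3.63% of all merged regions and 11.4% of the 48809 regions that at least 3 wild-type libraries called. The other 43243 of those, called in 1 or more EF libraries too, are used below for comparison and are called the shared regions. Because every library took part in the choice, the values below describe the regions and carry no test.

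ATAC-seq uses a transposase that cuts and tags DNA where chromatin is accessible, so peaks mark promoters, enhancers and other sites held open by bound factors. EWS::FLI1, named in the title of the series, is the fusion oncoprotein of Ewing sarcoma. It joins a part of EWS to the ETS-family factor FLI1, opens chromatin at repeats of GGAA and is also known for loss of activity at enhancers of the mesenchymal programme. YAP1 is the co-activator at the end of the Hippo pathway and binds DNA through TEAD factors, often beside AP-1. IGF-1 signals through the receptor Igf1r and the PI3K pathway.

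The EF libraries were 4 of genotype EF, from the lines S_220 and S_221 on each of 2 flowcells, 2 of genotype EF_IGF1, from the same lines, and 1 of genotype EF_IGF1_xeno, from S_221. The wild-type libraries were 4 labelled Wt, from WT_1, WT_2, BM and S_203 (Wt 1, Wt 2, Wt 3 and Wt 4 below), and 1 labelled Wt_IGF1, from BM. Flowcell BSF_0654 carried EF 1, EF 2, Wt 1 and Wt 2, and BSF_1013 carried the other 8 libraries. All were labelled MSCLCs, and the series calls the EF cells EFPrx1, a name that holds the older symbol of the limb mesenchyme factor Prrx1. No label spells out the driver of the fusion, the dose of IGF1 or what xeno stands for. The 7 EF libraries came from 2 lines, and BM gave 2 of the 5 wild-type libraries, so libraries are not all separate cultures.

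The gene starts among the regions can be read at base level. RefSeq promoters of 300 bases (250 before to 50 after a gene's start, GRCm38.p6) overlapped 338 of the 5566 regions (6.07%) and 21.7% of the shared ones. The 338 regions touched 399 promoters, some of them alternative starts of 1 gene. Shown are the 4 strongest that hold the AP-1 motif TGANTCA, leaving out unnamed gene models, and the start of the leukocyte protease gene Ctsc, which holds the ETS motif AGGAAGT and was chosen after its values were seen. Fgl2 is at chr5:21372423-21372722 (+ strand), Hal (histidine ammonia-lyase) at chr10:93488518-93488817 (+), Gfpt2 (an enzyme of the hexosamine pathway) at chr11:49793905-49794204 (+), Aldh1a1 (a retinaldehyde dehydrogenase) at chr19:20492333-20492632 (+) and Ctsc at chr7:88277835-88278134 (+). Capitals mark the motif on either strand.
Fgl2: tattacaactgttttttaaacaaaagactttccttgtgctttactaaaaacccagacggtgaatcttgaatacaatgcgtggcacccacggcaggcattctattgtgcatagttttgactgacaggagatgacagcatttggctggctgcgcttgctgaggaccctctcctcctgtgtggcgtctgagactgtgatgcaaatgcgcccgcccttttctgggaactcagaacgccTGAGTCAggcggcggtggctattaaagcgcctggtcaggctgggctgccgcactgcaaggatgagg
Hal: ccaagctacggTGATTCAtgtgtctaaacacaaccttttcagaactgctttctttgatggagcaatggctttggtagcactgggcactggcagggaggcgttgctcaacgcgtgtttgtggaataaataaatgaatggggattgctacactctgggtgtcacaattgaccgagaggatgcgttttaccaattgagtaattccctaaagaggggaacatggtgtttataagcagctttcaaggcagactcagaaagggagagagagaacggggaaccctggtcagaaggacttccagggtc
Gfpt2: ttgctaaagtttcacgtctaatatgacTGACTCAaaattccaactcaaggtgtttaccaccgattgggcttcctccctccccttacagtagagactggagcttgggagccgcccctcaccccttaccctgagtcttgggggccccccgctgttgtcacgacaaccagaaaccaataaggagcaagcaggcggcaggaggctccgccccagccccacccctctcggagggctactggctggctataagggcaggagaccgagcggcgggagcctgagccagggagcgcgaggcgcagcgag
Aldh1a1: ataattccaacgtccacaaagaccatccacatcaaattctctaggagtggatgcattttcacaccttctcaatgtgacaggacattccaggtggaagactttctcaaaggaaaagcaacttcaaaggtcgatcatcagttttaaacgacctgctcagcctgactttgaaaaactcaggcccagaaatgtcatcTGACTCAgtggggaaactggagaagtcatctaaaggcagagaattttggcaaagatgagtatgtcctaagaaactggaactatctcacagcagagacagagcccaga
Ctsc: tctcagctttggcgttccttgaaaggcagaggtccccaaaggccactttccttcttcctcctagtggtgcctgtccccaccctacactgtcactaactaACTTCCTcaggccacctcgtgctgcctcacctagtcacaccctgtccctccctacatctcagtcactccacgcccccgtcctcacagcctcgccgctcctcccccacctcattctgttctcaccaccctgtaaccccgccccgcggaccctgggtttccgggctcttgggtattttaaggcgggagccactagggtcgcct

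The 5 promoters differ in their callers. Gfpt2 and Aldh1a1 were called in Wt 3, Wt_IGF1 and Wt 4, Fgl2 and Hal in these and Wt 2, and Ctsc in all 5 wild-type libraries, with a −log10 q of 32.7 in Wt 2 and 4.61 to 12.5 in the other 4. No EF library called any of the 5 regions over them.

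The peak lists differed in length and make-up. EF libraries had 27309 to 67306 peaks on the chromosomes used and wild-type libraries 7723 to 83679, with Wt 1 the shortest list and Wt_IGF1 the longest. At genes of 6 blood marker lists (68 genes), EF libraries had 0.184% to 0.249% of their regions and wild-type libraries 0.267% to 0.454%, the highest in Wt 2. Of 12 libraries, Wt 2 called most regions at Ptprc, the leukocyte antigen CD45, with 13, against 0 to 4 in EF libraries and 1 to 7 in the other wild-type libraries. At Prrx1 the order was another: EF libraries called 2 to 16 regions, Wt 1 called 0, Wt 2 called 2, and Wt 3, Wt_IGF1 and Wt 4 called 8, 13 and 15. Cultures of a bulk assay can differ in the cells they hold or in the openness of a site per cell, and these lists cannot tell these apart.

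A region without a call is not shown to be closed. The lists hold no reads outside peaks, and the reads at a summit could be worked out only where a peak was called. The fewest reads at a called summit were 6 to 9 in EF libraries and 5 to 11 in wild-type libraries. The genome-wide background of the peak caller was 0.616 to 1.80 reads in EF libraries and 0.574 to 2.29 in wild-type libraries. When the wild-type summit reads were rescaled to each EF library's background, 99.2% of the 5566 regions in EF 2 and 100% in each of the other 6 would have passed the lowest −log10 p that the library lists. The shared regions passed in 99.7% or more, yet a single EF library called 48.9% to 86.8% of them, so a region passing this limit was often not called.

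Which cultures opened the 5566 regions was uneven. Wt 1 called 194 of them (3.49%), Wt 2 called 2141 (38.5%), Wt 3 called 4963 (89.2%), Wt_IGF1 called 5478 (98.4%) and Wt 4 called 4996 (89.8%). Among the shared regions the same libraries called 15.9%, 61.8%, 91.9%, 99.5% and 97.8%. The commonest set of callers was Wt 3, Wt_IGF1 and Wt 4 together with neither library of BSF_0654: 3425 regions, or 61.5%. These rest on 1 flowcell and 2 line names. A further 892 had Wt 2 as well, 526 were called in Wt 2, Wt_IGF1 and Wt 4, 477 in Wt 2, Wt 3 and Wt_IGF1, and 63 in all 5 wild-type libraries.

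**Figure D1:**
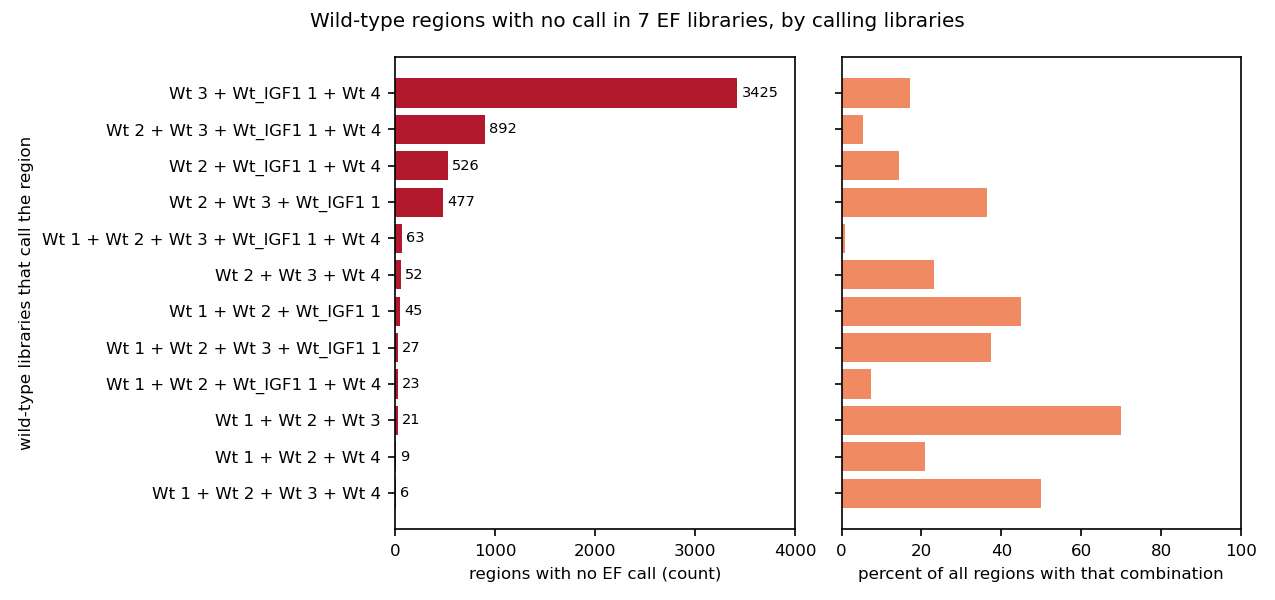
Regions with no call in 7 EF libraries, by the wild-type libraries that call them (rows). Left, bars give the number of regions, from 3425 to 6; right, bars give the percent of all regions with the same wild-type callers that no EF library called, from 0.972% for all 5 callers to 70.0% for Wt 1, Wt 2 and Wt 3.

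The share left uncalled in EF cells depended on the callers. It was 18.0% of the 25289 regions with 3 wild-type calls, 5.56% of the 17036 with 4 and 0.972% of the 6484 with all 5. Where Wt 4, the wild-type culture of line S_203, did not call the region, 570 of 1516 (37.6%) had no EF call, against 4996 of 47293 (10.6%) where it did. Regions lacking Wt 4 were weak in both classes, with a median −log10 q of 9.12 without an EF call and 9.96 with one. Without and with a call the shares were 28.3% and 11.3% for Wt_IGF1, 17.2% and 7.41% for Wt 2, 14.7% and 11.1% for Wt 3, and 12.9% and 2.75% for Wt 1. These splits also carry the number of calls, and at exactly 3 calls the order for Wt 1 and Wt 2 did not hold. There the share was 17.2% for Wt 3, Wt_IGF1 and Wt 4. It was 14.4% to 70.0% for the sets with Wt 2, and 20.9% to 70.0% for those with both Wt 1 and Wt 2.

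At the edges of the rule, 4555 regions had exactly 3 wild-type calls and no EF call. Just outside it, 8164 had 2 wild-type calls and no EF call, and 3303 had 3 or more wild-type calls and a single EF call. Their median −log10 q over the calling wild-type libraries was 11.1 for the first and 9.20 for the second. The single EF call came from EF 4 in 937 regions, EF_IGF1 2 in 886, EF 3 in 700, EF 1 in 527, EF_IGF1 1 in 153, EF 2 in 58 and EF_IGF1_xeno in 42. Those EF peaks were themselves weak, with medians of 11 to 19.5 reads at the summit. In the opposite direction, 1274 regions (0.831% of all) were called in at least 5 of 7 EF libraries and in no wild-type library.

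The regions without an EF call were weaker than the shared regions in every wild-type library. The median peak fold over background in regions without and with EF calls was 5.08 and 5.29 in Wt 1, and 6.82 and 7.64 in Wt 2. It was 6.96 and 7.98 in Wt 3, 7.52 and 8.87 in Wt_IGF1, and 7.60 and 9.49 in Wt 4. The mean of the 5 differences was −1.06 (SD 0.63, n = 5 libraries). With lists cut to the 30000 strongest peaks of each library the mean was 0.06 (SD 0.34, n = 5), and on BSF_0654 alone it was 0.15 (SD 0.72, n = 2). Both lay within their spread, so no lower fold was seen under these settings. However, most regions selected there were other regions. Of 2076 with the cut lists, 831 overlapped the main ones, and of 751 on BSF_0654, 194 did. Whether the main regions themselves lose their lower fold was not tested.

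**Figure D2:**
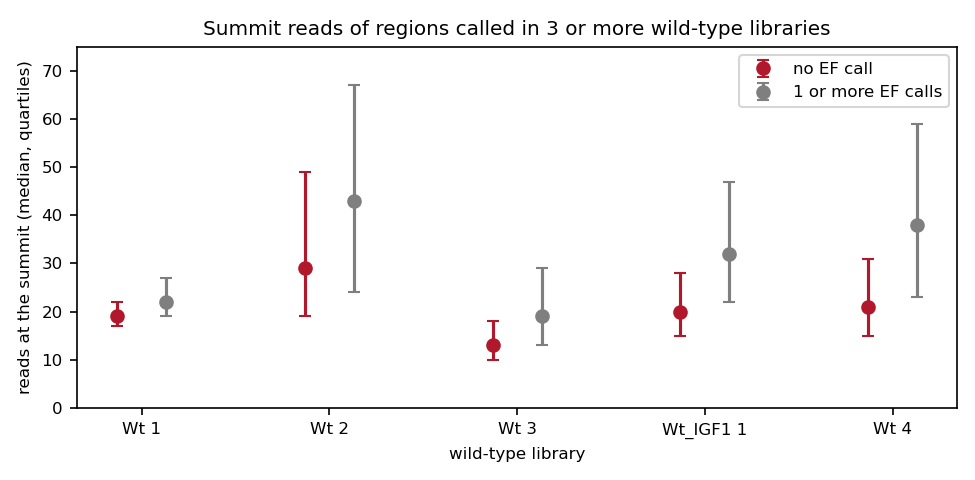
Reads at the peak summit (vertical axis; point, median; bars, quartiles) in each wild-type library for regions with no EF call (red) and for regions with 1 or more EF calls (grey). Red medians run from 13 in Wt 3 to 29 in Wt 2 and grey medians from 19 in Wt 3 to 43 in Wt 2.

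Reads at the summit showed the same order. Their median was 19 in regions without an EF call and 22 in shared regions in Wt 1, 29 and 43 in Wt 2, 13 and 19 in Wt 3, 20 and 32 in Wt_IGF1, and 21 and 38 in Wt 4. The quartile ranges overlapped in all 5 libraries.

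Strength and loss of the call went together. Regions were put in 10 equal bins by their median −log10 q over the calling wild-type libraries. In bin 1 (−log10 q of 3.40 to 8.17), 27.9% had no EF call (95% exact binomial interval 26.6 to 29.2). In bin 5 the share was 11.9% (11.0 to 12.9), and in bin 10 (41.7 to 118) it was 0.902% (0.656 to 1.21). Of the 5566, 851 had a median −log10 q of 20 or more and 55 of 40 or more. These intervals cover counting error only.

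**Figure D3:**
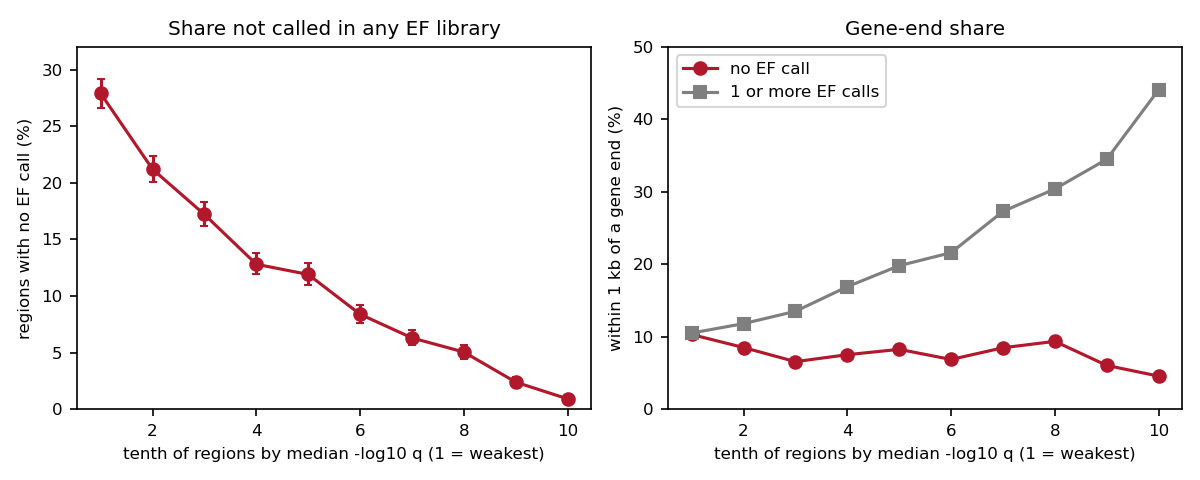
Left, percent of wild-type regions with no EF call (vertical axis; bars, 95% exact binomial intervals) in 10 bins by median −log10 q, weakest first; it runs from 27.9% to 0.902%. Right, percent within 1 kb of a gene end in the same bins, 10.3% to 4.55% without an EF call (red) and 10.5% to 44.1% with 1 or more (grey).

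Most of the regions lay away from gene ends. Within 1 kb of either end of a protein-coding gene lay 464 (8.34%), against 10337 (23.9%) of the shared regions. At their summits, 2944 (52.9%) were inside a gene, 1895 (34.0%) were outside but within 100 kb of one, and 727 (13.1%) had no gene within 100 kb. For the shared regions these shares were 56.4%, 36.9% and 6.72%. The median width was 490 bp without an EF call and 707 bp with one. The closest other region that at least 4 EF libraries called lay at a median of 16418 bp from regions without an EF call and 10536 bp from shared ones.

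The gene-end share differed from the shared regions in strong bins and not in the weakest. In bin 1 it was 10.3% without an EF call and 10.5% with one. In bin 5 it was 8.25% and 19.8%, in bin 8 9.35% and 30.4%, and in bin 10 4.55% (2 of 44 regions) and 44.1%. The calling libraries mattered as well. Among regions called in neither Wt 1 nor Wt 2, 4.18% of those without an EF call and 4.89% of the shared ones lay at a gene end. Among those called in Wt 2 and not in Wt 1 the shares were 14.7% and 23.1%, and among those called in Wt 1 they were 18.0% and 72.0%. The gap to the shared regions was thus widest in regions that Wt 1 called and narrowest in those that only BSF_1013 libraries called.

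Along the chromosomes the share of wild-type regions without an EF call ran from 7.70% on chromosome 15 to 14.0% on chromosomes 13 and 18. Of 1200 windows of 2 Mb that held a region of at least 3 wild-type libraries, 1037 held 1 or more regions without an EF call, with a median of 4. The most were in chr14:22000001-24000000, around Lrmda and Kcnma1, where 22 of 53 wild-type regions (41.5%) had no EF call. In chr9:84000001-86000000, with Ibtk, Tent5a and Tpbg, the count was 20 of 43 (46.5%). In chr12:26000001-28000000, with Rnf144a and the SOXC factor Sox11, it was 14 of 29 (48.3%), and in chr7:106000001-108000000, with Ppfibp2, 7 of 10 (70.0%). The chr14 window also held 87 regions with an EF call, 7 of them in 4 or more EF libraries.

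The 5566 regions were spread over 3295 genes, taking the gene that holds the summit or else the nearest within 100 kb, and 2401 of these genes had 1 region. Long genes led. Lrmda (a leucine-rich repeat protein of melanocyte differentiation; chr14:22019504-23056093) had 15 of its 36 wild-type regions without an EF call, 11 of them inside the gene. Cacna1c, the pore subunit of an L-type calcium channel, had 10 of 29, and Gabrg3, a GABA-A receptor subunit, had 10 of 15. All 20 regions of Cacna1c and Gabrg3 were called in Wt 3, Wt_IGF1 and Wt 4 and in neither Wt 1 nor Wt 2. The same holds for all regions counted at Ccbe1 and Adam12. These regions have exactly the 3 calls asked for. Leaving out Wt 3, Wt_IGF1 or Wt 4 therefore leaves 0 at each of these genes by construction.

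Counts of 8 were found at Glis3 (a zinc finger factor; 8 of 30), Macrod2 (an ADP-ribose hydrolase; 8 of 21), Ccbe1 (a secreted protein of lymphatic growth; 8 of 21), Adam12 (a membrane metalloprotease; 8 of 18) and Dnm3 (a dynamin; 8 of 28). Counts of 7 were found at Tspan18 (a tetraspanin; 7 of 15), Sntb1 (a syntrophin; 7 of 10), Arhgap26 (a GTPase-activating protein; 7 of 33) and Rftn1 (raftlin, of membrane rafts; 7 of 11). The highest share without an EF call among these 12 genes was 70.0%, at Sntb1, against 11.4% of all wild-type regions. All 12 were picked for their counts. In Rftn1, 5 of the 7 regions were called in Wt 2, while in Ccbe1 and Adam12 none was.

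The strongest regions were called mostly in the BSF_1013 libraries, as were the 5566 regions as a whole. The first, chr2:159755234-159756105, had no protein-coding gene within 100 kb and had 55, 69 and 106 reads at the summit in Wt 3, Wt_IGF1 and Wt 4. The region chr18:24081096-24081787, 23303 bp from Ino80c (a subunit of the INO80 chromatin remodeller), had 62, 69 and 106 reads. A region inside Cacna1c, chr6:118954952-118955635, had 66, 73 and 44 reads. None of these 3 was called in Wt 1 or Wt 2.

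Of the 15 regions with the highest median −log10 q, 10 were called in Wt 3, Wt_IGF1 and Wt 4 alone, 3 in these and Wt 2, and 2 in all 5. Over all 5566 regions these sets of callers made up 61.5%, 16.0% and 1.13%. Others of the 15 lay inside Synpr (a synaptic vesicle protein), Auts2, Garnl3 and Tiam1 (an activator of Rac), and near Tmem215. The region inside Auts2 had 44, 54 and 81 reads in Wt 3, Wt_IGF1 and Wt 4. In the region inside Garnl3 the reads were 53, 55 and 18, so Wt 4 was low there. The region inside Tiam1 had 64, 42, 54 and 46 reads in Wt 2, Wt 3, Wt_IGF1 and Wt 4.

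The clearest gene-end case was Tppp3, a tubulin polymerisation-promoting protein. The region chr8:105471104-105471813 lay 47 bp outside the gene and was called in all 5 wild-type libraries. It had 30, 97, 59, 106 and 66 reads at the summit in Wt 1, Wt 2, Wt 3, Wt_IGF1 and Wt 4, and no call in 7 EF libraries. The other gene-end regions of highest median −log10 q lay at Git2 (an ARF GTPase-activating protein), Acot12 (an acyl-CoA thioesterase), Ccr1 (a chemokine receptor of myeloid cells), Vwa3b, Raet1e (a ligand of the NK cell receptor NKG2D), Fgl2 (a fibrinogen-like protein of immune cells), Rab42 and the gene models 4930523C07Rik and 9030624G23Rik. At Ccr1 the reads were 53, 24, 45 and 31 in Wt 2, Wt 3, Wt_IGF1 and Wt 4. At Fgl2 they were 44, 24, 50 and 30. Git2 was called in Wt 3, Wt_IGF1 and Wt 4 with 46, 81 and 23 reads.

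All 4 wild-type line names, and so both flowcells, called 92 regions without an EF call. Of these, 63 were called in all 5 wild-type libraries. After Tppp3 the strongest lay 7123 bp from Tnfrsf14 (the receptor HVEM of lymphocyte signalling), with 19, 94, 44, 59 and 56 reads in Wt 1, Wt 2, Wt 3, Wt_IGF1 and Wt 4, and 35531 bp from Plxna1 (a semaphorin receptor), with 19, 101, 45, 48 and 31 reads. Others lay at the ends of Map3k9 (a kinase of the JNK pathway), Lrmda, Gstk1 (a glutathione transferase) and Hspa1l (a heat shock protein), inside Kif27, Piwil2, Gsap, Arhgap18 and Actr3, and outside Zc3h12a (an RNase that degrades inflammatory mRNAs), Glrp1 and Zswim6. At the end of Map3k9 the reads were 26, 111, 17, 37 and 40. Of these 15 regions, Wt 2 had the most reads in 13, while the fold over background was highest in Wt 2 in 2, in Wt 3 in 3, in Wt_IGF1 in 4 and in Wt 4 in 6.

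**Figure D4:**
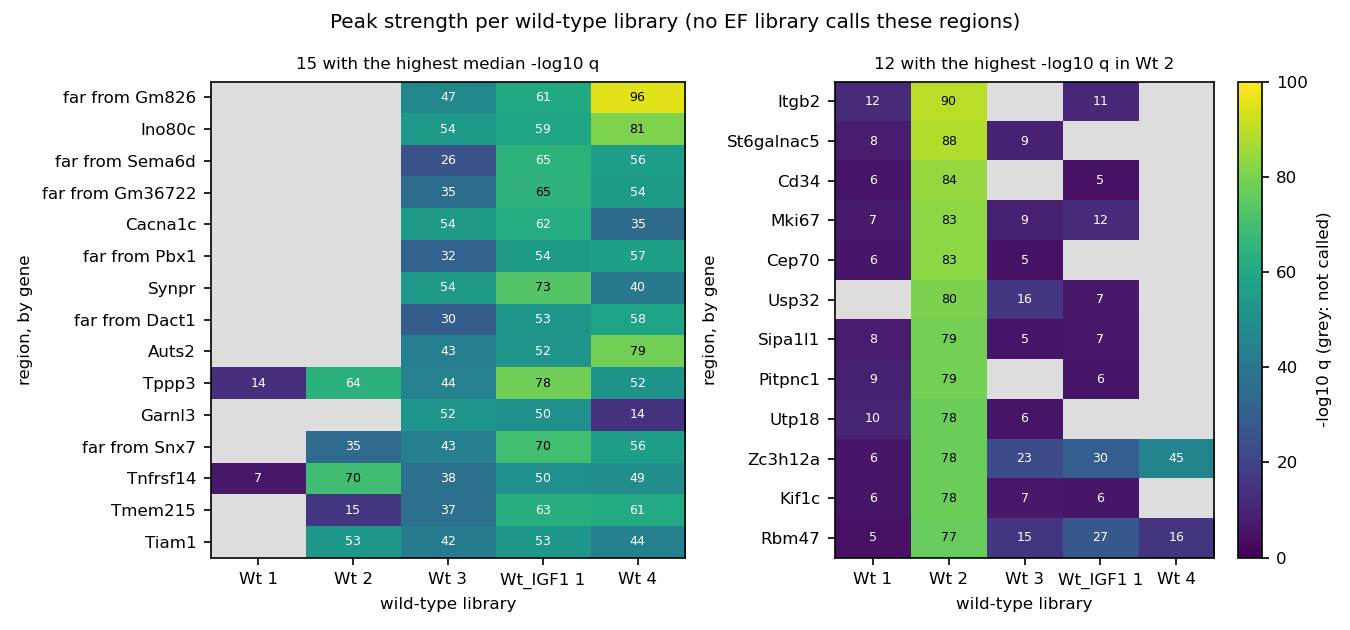
−log10 q (colour and number; grey, not called) in 5 wild-type libraries (columns) of 15 regions with the highest median (left) and of 12 with the highest value in Wt 2 (right); rows are named by their gene or by the nearest one beyond 100 kb. The left set is led by Wt 3, Wt_IGF1 and Wt 4, while the right set has 76.8 to 89.7 in Wt 2 and at most 45.2 in the other libraries.

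A smaller class of regions had a higher fold in Wt 2 than in the BSF_1013 wild-type libraries that called them. Of the 194 regions that Wt 1 called, Wt 2 had a higher fold than every calling BSF_1013 wild-type library in 147 (75.8%). For the 6862 shared regions that Wt 1 called, this share was 21.8%. A fold exists only where a library called the region. All 3 BSF_1013 wild-type libraries called only 63 of the 194, but most of the shared ones. Wt 2 thus had fewer folds to exceed in the 194, and the 2 shares are not matched. The median fold of the 194 was 10 in Wt 2 and 6.54 over the BSF_1013 calls, while in the shared regions it was 9.61 and 10. Of the 2141 regions called in Wt 2, its fold was in the same way the highest in 765 (35.7%), against 18.5% of the shared regions. Where every wild-type library but Wt 1 called the region, the shares were 20.9% of 892 and 13.7% of 15749. There the median fold was lower in Wt 2 than over the BSF_1013 calls. It was 6.64 and 7.38 without an EF call, and 7.20 and 8.80 in the shared regions. Wt 2 is also the library with the most blood marker regions, and the part of other cells in this class was not tested.

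The regions with the highest −log10 q in Wt 2, chosen after their values were seen, did not all have their highest fold there. The first lay inside Itgb2, the beta chain of the leukocyte integrins, at chr10:77550822-77551383. It had 27, 114 and 15 reads at the summit in Wt 1, Wt 2 and Wt_IGF1 and no call in Wt 3 or Wt 4. A region 34057 bp from Cd34, a surface antigen of blood progenitors and endothelium, had 17, 100 and 9 reads in the same 3 libraries. A region inside Rbm47, chr5:66112003-66112619, was called in all 5 with 16, 101, 18, 33 and 19 reads. The others lay at St6galnac5, Mki67, Cep70, Usp32, Sipa1l1, Pitpnc1, Utp18, Kif1c and Zc3h12a. At Zc3h12a the fold was 13.9 in Wt 2 and 15.4 in Wt 4, and at Rbm47 it was 13.6 in Wt 2 and 12.1 in Wt_IGF1.

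Regions at blood genes were more often without an EF call than wild-type regions in general, though they are few. At the 68 genes of the 6 blood lists, 30 of 142 wild-type regions (21.1%) had no EF call, against 11.4% of all. Among regions that Wt 1 called, 6 of 194 without an EF call (3.09%) and 11 of 6862 with one (0.16%) were at these genes. Among regions called in Wt 2 and not in Wt 1 the shares were 0.411% and 0.287%, and among those called in neither, 0.467% and 0.267%. By list, the counts were 12 of 49 at pan-leukocyte genes, 7 of 27 at B cell genes, 5 of 27 at T and NK cell genes, 3 of 19 at macrophage and monocyte genes, 3 of 12 at erythroid and megakaryocyte genes and 0 of 8 at granulocyte and mast cell genes.

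Of the pan-leukocyte regions, 4 were at Runx1 (a factor of blood stem cells), 2 each at Ptprc, Ikzf1 and Runx3, and 1 each at Spi1 (PU.1, the ETS factor of myeloid cells) and Coro1a (a coronin of leukocyte actin). Both Ikzf1 regions, at the gene of the lymphoid factor Ikaros, were called in Wt 1, Wt 2 and Wt 3 alone, with a −log10 q of 65.2 and 51.8 in Wt 2 and at most 8.10 in Wt 1 and Wt 3. One Ptprc region, chr1:138136265-138136825, had a −log10 q of 9.37, 66.5, 9.17, 32.4 and 11.9 in Wt 1, Wt 2, Wt 3, Wt_IGF1 and Wt 4. At Csf1r, which encodes the CSF1 receptor of macrophages, both regions without an EF call peaked in Wt 2, with 49.4 and 32.7, and stayed between 4.55 and 6.20 in the other 3 calling libraries. Of the 7 B cell regions, 6 were at Ebf1, a factor of B cells that adipocyte precursors also use, and none of these 6 was called in Wt 1 or Wt 2. Ends of Lcp1 (a leukocyte actin bundler), Ctsc (cathepsin C) and Unc93b1 (a Toll-like receptor carrier) were among the 63 regions of all 5 libraries. These genes were named after their values were seen. The −log10 q was highest in Wt 2 at Lcp1 and Ctsc, but not at Unc93b1. There it was 24.1 in Wt 2, 36.8 in Wt_IGF1 and 44.8 in Wt 4. At each of these genes the fold was higher in Wt_IGF1 than in Wt 2.

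Lists of other cell types stayed near or under the background of 11.4%: 4 of 48 wild-type regions at endothelial genes, 1 of 30 at smooth muscle and pericyte genes, 2 of 22 at epithelial genes, 0 of 15 at skeletal muscle genes and 0 of 15 at neural and Schwann cell genes. The endothelial ones were at Esam, Kdr (a VEGF receptor) and Erg, an ETS factor, with 2. The smooth muscle one was at Rgs5, and the epithelial ones were at Grhl2 and Trp63.

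**Figure D5:**
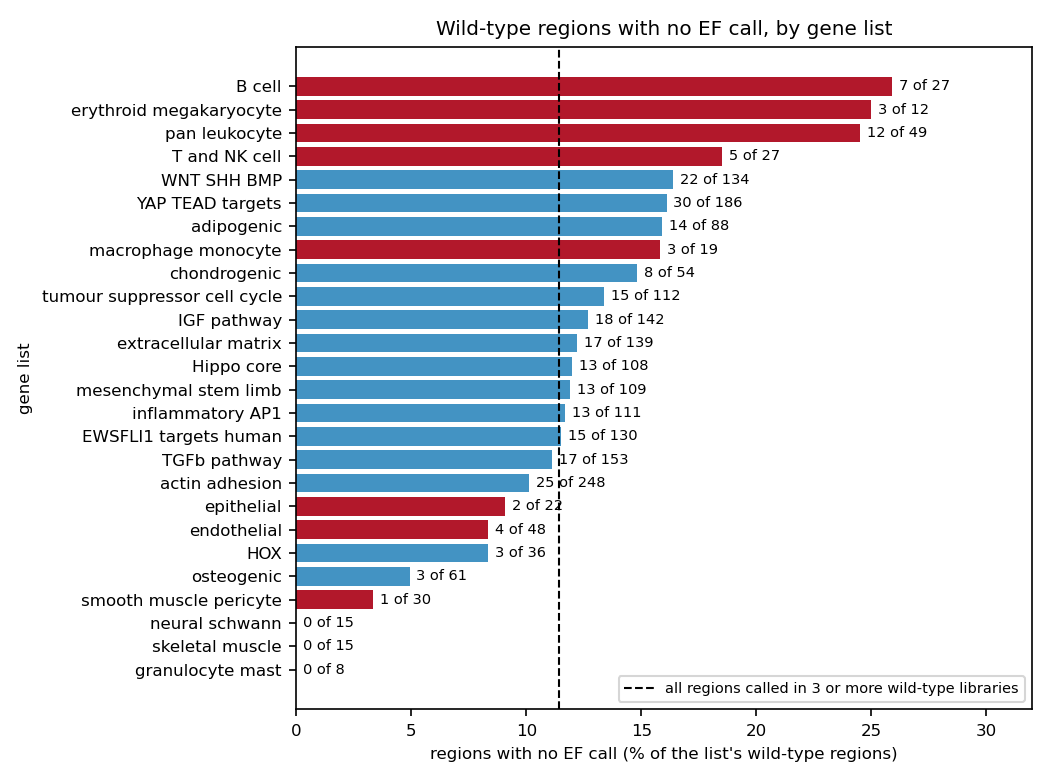
Percent of each gene list's wild-type regions that had no EF call (horizontal axis), with counts beside the bars; red, cell type marker lists, blue, tissue and pathway lists. The dashed line is 11.4%, the share over all regions called in at least 3 wild-type libraries, and the bars run from 25.9% for B cell genes to 0 for 3 lists.

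Mesenchymal lists lay on both sides of the background of 11.4%. Genes of mesenchymal stem cells and limb mesenchyme had 13 of 109 wild-type regions without an EF call (11.9%). Cartilage genes had 8 of 54 (14.8%), fat cell genes 14 of 88 (15.9%) and bone genes 3 of 61 (4.92%). Of all regions called in neither Wt 1 nor Wt 2, 17.2% had no EF call. In that class the lists, in the same order, had 9 of 66 (13.6%), 2 of 29 (6.9%), 9 of 44 (20.5%) and 1 of 34 (2.94%). Of these lists, only the fat cell genes lay above their class. At Prrx1 itself, 1 of 7 wild-type regions had no EF call: chr1:163252296-163253211, inside the gene, with 39, 38 and 44 reads in Wt 3, Wt_IGF1 and Wt 4. The T-box factors Tbx18 and Tbx15 had 2 of 4 and 3 of 6. At Runx2, the master factor of bone, 2 of 19 had no EF call, and their −log10 q of 42.9 and 33.3 in Wt 2 was above every other wild-type library's. Of the cartilage regions, 5 of 8 were at Trps1, a zinc finger factor, and at Sox5 a region had 21.7, 22.4 and 37.7 in Wt 3, Wt_IGF1 and Wt 4.

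Of the fat cell regions, 6 were at Ebf1, 2 each at Cebpb (C/EBP beta) and Klf15, and 1 at Pparg, the master factor of fat cells. The Pparg region had a −log10 q of 16.7, 17.7 and 29.6 in Wt 3, Wt_IGF1 and Wt 4. Matrix genes had 17 of 139, of which 7 of 95 lay in the gene or within 20 kb. Among regions called in neither Wt 1 nor Wt 2 they had 13 of 113 (11.5%), against 17.2% of that class. The strongest matrix regions were near Postn (periostin), Tnc (tenascin C) and Cdh11 (a mesenchymal cadherin). HOX genes had 3 of 36 (8.33%).

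YAP and TEAD target genes had 30 of 186 wild-type regions without an EF call (16.1%). They lay at 13 genes, with 7 at Rbms3 (an RNA-binding protein), 4 at Dlc1 (a GTPase-activating protein), 3 at Asap1, and 2 each at Ptpn14, Foxf2, Tgfb2, Arhgef17 and the classic targets Ccn1 and Ccn2. Of the 30, 27 were called in neither Wt 1 nor Wt 2. In that class 27 of 127 regions at these genes (21.3%) had no EF call, against 17.2% of all regions of the class. At Ptpn14, a phosphatase that restrains YAP, a region had a −log10 q of 31.5, 30.4 and 40 in Wt 3, Wt_IGF1 and Wt 4.

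The Hippo pathway genes themselves had 13 of 108 (12.0%), with 3 each at Yap1 and at Vgll4, a TEAD co-factor. The 3 Yap1 regions all lay inside the gene. In the order given next, their median −log10 q was 7.20, 6.34 and 18.7, against 11.4 over all 5566 regions. Their summit reads in Wt 3, Wt_IGF1 and Wt 4 were 11, 10 and 15 at chr9:7943962-7944378, 10, 14 and 16 at chr9:7950191-7950701, and 10, 30 and 31 at chr9:7961682-7962319. Wt 1 and Wt 2 called none of the 3, and the other 3 of 6 wild-type regions at Yap1 had EF calls. A region inside Nf2, the tumour suppressor merlin, had 19.6, 11.7, 19.0 and 38.1 for −log10 q in Wt 2, Wt 3, Wt_IGF1 and Wt 4.

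IGF pathway genes had 18 of 142 (12.7%), of which 11 of 103 lay in the gene or within 20 kb. At the receptor gene Igf1r, 3 of 15 wild-type regions had no EF call. The region chr7:68134947-68135471 had 37, 53 and 39 reads in Wt 3, Wt_IGF1 and Wt 4, and chr7:68006524-68007041 had 16, 31 and 48 reads in Wt 2, Wt 3 and Wt_IGF1. The ligand gene Igf1 had 2 of 9, with 7, 24 and 13 reads in Wt 3, Wt_IGF1 and Wt 4 at the one inside the gene and 13, 14 and 21 at the one 23171 bp away. The receptor substrates Irs1 and Irs2 had 1 such region each. Cdkn2a, which encodes the tumour suppressors p16 and p19Arf, had 3 wild-type regions and all 3 had EF calls.

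Developmental signalling genes of the WNT, hedgehog and BMP pathways had 22 of 134 (16.4%). Among regions called in neither Wt 1 nor Wt 2 they had 16 of 89 (18%), near the 17.2% of that class. Bmpr1b, a BMP receptor, led with 5 of its 7 regions, followed by Gli3 with 4 of 24 and the WNT antagonist Sfrp1 with 3 of 8. A region 54683 bp from Dkk1, another WNT antagonist, had a −log10 q of 42.3, 29.7 and 56.8 in Wt 3, Wt_IGF1 and Wt 4. TGF-beta genes had 17 of 153, inflammatory and AP-1 genes 13 of 111, cell cycle and tumour suppressor genes 15 of 112 and actin and adhesion genes 25 of 248. Genes known as EWS::FLI1 targets in human Ewing sarcoma had 15 of 130 (11.5%), which is the background, with 2 each at Runx2, Myc, Jak1 and Tgfbr2.

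IGF1 could be read within BM, with 1 library for each condition and no replicate. Of the 5566 regions, 594 were called in Wt_IGF1 and not in Wt 3, and 79 in Wt 3 and not in Wt_IGF1. In the shared regions the counts were 3470 and 189. Where both called the region, the fold was higher in Wt_IGF1 in 63.3% of 4884 regions without an EF call and in 67.9% of 39550 shared regions. The lists of Wt_IGF1 and Wt 3 held 83679 and 57297 peaks, so the longer list also made the more calls.

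CpG content separated the promoters without an EF call from the shared ones. The ratio of observed to expected CpG had a median of 0.558 in the 399 promoters without an EF call, 0.785 in 12394 shared ones and 0.387 in all 32619 promoters. A ratio above 0.6 was found in 46.1%, 75.7% and 36.0%. Among promoters that Wt 1 or Wt 2 called, a ratio above 0.6 was found in 52.5% of 276 without an EF call and in 78.7% of 11675 with one. Among those that neither called, it was found in 31.7% of 123 without an EF call and in 27.3% of 719 with one. The lower CpG content was thus seen in the larger class and not in the smaller.

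Motif contrasts differed between these classes. TGANTCA, the AP-1 site, was in 41 of the 399 promoters without an EF call (10.3%), in 5.41% of the shared ones and in 7.85% of all. Where Wt 1 or Wt 2 called the promoter, it was in 7.61% without an EF call and 4.88% with one, and where neither did, in 16.3% and 14.0%. TTGCNNAA, a C/EBP site, was in 15.5% without an EF call, 7.89% of the shared ones and 10.9% of all, and was more frequent without an EF call in both classes (13.8% against 7.60%, and 19.5% against 12.7%).

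CCGGAAG, an ETS site with a CpG, was in 7.27% without an EF call, 18.8% of the shared ones and 8.92% of all. Where Wt 1 or Wt 2 called the promoter, it was in 7.25% without an EF call and 19.7% with one, but where neither did, in 7.32% and 4.31%. AGGAAGT, an ETS site without a CpG, was in 6.77%, 8.08% and 9.38%. GGAATG, the TEAD site, was in 10.5%, 11.7% and 14.6%. Its shares without and with an EF call were 9.06% and 11.0% in the first class and 13.8% and 22.1% in the second. The GC box GGGCGG was in 49.4%, 66.5% and 35.9%.

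The remaining motifs are given over all classes. TGTGGTT, the RUNX site, was in 2.01% of promoters without an EF call, 3.48% of shared ones and 5.29% of all. The CRE, TGACGTCA, was in 1.00%, 3.38% and 1.80%, CACGTG, an E-box, in 8.27%, 10.4% and 7.20%, CCAAT in 32.8%, 38.2% and 37.6%, and TATAAA in 9.02%, 6.21% and 13.7%. GGAA repeated 3 times in a row, the element that EWS::FLI1 binds, was in 0 of 399 promoters without an EF call, 0.0807% of shared ones and 0.120% of all. Both strands were read, and no motif was masked where another overlapped it. A match is a string of letters and not a bound site, and the sequences of regions away from gene starts were not used here.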

How the data were processed

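ATAC-seq libraries (12) were analysed from the peak lists the authors deposited. Peaks were called with MACS2 against build GRCm38.p3, per the submitters' processing notes, in 1 list per library; no label or header names the caller's version, its thresholds or the aligner. Per the narrowPeak format of the deposited files, each peak has a score (10 times the −log10 q), a fold over background (a ratio with a pseudocount of 1), a −log10 p and a −log10 q. Reads at each summit and the background were solved from fold and p (Poisson, error within 0.001 on −log10 p), with a unique solution for 99.8% to 100% of peaks per library, and checked on simulated peaks. The peak count of a list is the only depth known.

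Peaks on chromosomes 1 to 19 and X were merged at 1 bp of overlap. Regions were assigned to the RefSeq protein-coding gene (GRCm38.p6 table) holding the middle of their summits, or the nearest within 100 kb. A gene end is either end of the gene. Values such as fold are the authors'. Medians were compared within a list. Folds, summit reads and −log10 q of 1 region were also set side by side between wild-type lists, whose backgrounds and lengths differ.

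Named were the 12 genes with most regions, the 15 regions of highest median −log10 q, the first 15 called in all 5 wild-type libraries, the first 10 within 1 kb of a gene end, up to 4 for each of 26 gene lists, and Yap1, Igf1, Igf1r, Prrx1 and Cdkn2a. The regions and lists were chosen with earlier results of these data known. Motifs were read in promoters only. Of the regions where 1 library stood apart, 1 is counted but not reported here by name. Alternatives changed the peak cutoff, merging, overlap, list length, number of wild-type calls, flowcell, IGF1 libraries, gene-end distance and each library in turn. Python 3.11.15, numpy 2.4.6, pandas 2.3.3, scipy 1.17.1 and matplotlib 3.10.9 were used.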

Additional observations from a re-analysis of the deposited data

Results flagged for a closer look

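The 4 Wt libraries were checked for 1 value far from the other 3 (Dixon's 95% critical value) in 79 groups: every one of the 69 regions without an EF call that all 4 called, and 10 values per library. The highest −log10 q stood apart in 30 of the 69 regions, and in all 30 it was that of Wt 2. These values were not scaled for the lists' backgrounds, which were 2.29 in Wt 1, 1.78 in Wt 2, 0.574 in Wt 3 and 1.11 in Wt 4. Among shared regions that all 4 Wt libraries called, Wt 2 stood apart in 61 of 6427 (0.949%), against 43.5% of the 69. Chance flags about 1 group in 20, but regions share their libraries and are not independent groups.

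In Wt 2 the −log10 q was 76.8 at Rbm47, 69.4 at Ptpn5, 67.5 at Serpinb2, 66.5 at Ptprc, 64.6 at Atg5, 63.4 at Ndst1, 61.2 at Slc12a3 and 60.0 at Ccdc149. It was 59.4 at Gm2a, 58.7 at Il1a, 58.6 at Itga5, 58.1 at Crlf2, 58.0 at Ankdd1a, 55.8 at Myc, 53.6 at Tagln2, 52.6 at Rab8b, 52.2 at Olfr552, 51.8 at Ppfibp2 and 50.4 at Pdgfc. It was 49.8 at Ccl4, 46.8 at Il10rb, 46.7 at Abca1, 43.9 at Pcnx, 39.8 at Macrod2, 34.3 at Abcc3, 32.7 at Ctsc, 32 at Lcp1, 31.2 at Gm42134 and 30.0 at Pip5k1c. Each is the gene that holds the region or the nearest one.

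The Ptprc region had 9.37 in Wt 1, 9.17 in Wt 3 and 11.9 in Wt 4, and the Rbm47 region 4.68, 15.3 and 15.5. Wt 2 called 267 of 497 regions at blood genes, the most of the 12 libraries, and the part of other cells in these values was not tested.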

How the results depend on the processing

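The number of regions without an EF call was 5566. It was within 1.5 times of that with peaks of −log10 q 5 or more, with 250 bp around summits, with a stricter coverage of regions by peaks (0.5 of the region) and on BSF_1013 alone. It was 2076 with the 30000 strongest peaks of each list, 13730 asking for 2 wild-type calls, 1011 asking for 4, 1439 without IGF1 libraries and 751 on BSF_0654 alone, an alternative chosen after seeing the data. As a share of wild-type regions, 11.4% became 15.2% with the stricter coverage, 9.24%, 19.9%, 4.3%, 6.0% and 10.1% in those 5 settings. The gene-end share, 8.34%, became 7.0%, 7.47%, 14.0%, 12% and 12.5%, with 6.15% on BSF_1013 alone, 6.07% within 500 bp and 11.9% within 2000 bp. The mean fold difference, −1.06, was 0.06 (SD 0.34, n = 5) with the 30000 strongest peaks and 0.15 (SD 0.72, n = 2) on BSF_0654, both within their spread. The cause was not tested. These settings did not keep the same rule or the same regions. BSF_0654 holds 2 wild-type libraries and BSF_1013 holds 3, and calls in all of them were asked for. Without IGF1 libraries, 3 of 4 wild-type calls were asked for. Of the 2076, 1439 and 751 regions, 831, 1093 and 194 overlapped the 5566.

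Leaving out 1 library in turn gave 1093 to 6503 regions, 4.59% to 13.3% of wild-type regions, a gene-end share of 6.42% to 17.1% and a fold difference of −1.4 to −1.02. The number moved by over 1.5 times without Wt 3 (1591), Wt_IGF1 (1093) or Wt 4 (1554), where the rule asks for 3 of 4 wild-type calls. Of 252 gene counts recomputed over the settings, 89 moved by over 1.5 times, as did 5 of 26 list counts. No paired analysis was possible because the counts come from no test and the replicate numbers do not tie wild-type to EF lines. Depth is unknown beyond the peak lists, so a region not called may lie under a library's limit.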
